A study of Mus musculus with 26 samples.

Results

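The AP-1 transcription factors described here are 6 genes, Fos, Fosb, Fosl2, Jun, Junb and Jund, out of 31735 genes counted in every library. They were taken by name, as the rows that carry these 6 symbols in all 26 deposited count tables. No measured value entered that rule, but the genes were chosen with earlier results of these data known. RNA-seq was done on the accumbens nucleus, the part of the ventral striatum that receives dopamine from the midbrain, of adult Drd2-TRAP mice of line CP101 that administered saline or cocaine to themselves by vein with long access. All groups share this transgene, in which the Drd2 promoter drives ribosomal protein L10a fused to EGFP, and the strain label FVB/N-Swiss Webster with a minimum of 9 generations of C57BL/6. Tagged polysomes were pulled down with an anti-EGFP antibody to give 24 immunopurified libraries, and total RNA gave 2 input libraries.

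The titles divide the immunopurified libraries into 5 groups. Without withdrawal there are saline (n = 3), nonescalating (n = 5), where cocaine intake did not escalate, and escalating (n = 2), where it did. With withdrawal there are saline withdrawal (n = 6) and nonescalating withdrawal (n = 8). One input is from the saline and one from the nonescalating group. The labels give no dose, session length, withdrawal time or age in days. The description field of the 5 nonescalating libraries names withdrawal and their titles do not, and the titles were followed. The libraries come in 2 sets by their library numbers. Set 1 holds all groups and the inputs, and set 2 holds 3 further saline withdrawal and 5 further nonescalating withdrawal libraries. The labels do not say that each library is a separate animal, so n counts libraries and the p-values measure the spread between libraries, which may in part be technical.

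AP-1 is a dimeric transcription factor. A Jun protein pairs with a Fos protein or with another Jun protein through a leucine zipper, and the pair binds short DNA sites such as the one first found in phorbol ester response elements. Fos, Fosb and Junb are immediate early genes whose transcription starts within minutes of strong synaptic or dopamine input and soon stops, while Jund and Fosl2 are known for slower or steadier expression. In the striatum, c-Fos is a common marker of acute drug response, and ΔFosB, a truncated and long-lived product of Fosb splicing, is known to build up with repeated cocaine. Gene counts of Fosb do not separate FosB from ΔFosB, and ribosome-bound RNA measures neither transcription rate nor protein.

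The members lie on 5 chromosomes of the mouse build GRCm38 (mm10), by the GENCODE M21 annotation. Fos is at chromosome 12, 85473890 to 85477273, on the plus strand, and Fosb at chromosome 7, 19302696 to 19310051, on the minus strand. Fosl2 is at chromosome 5, 32135801 to 32157842 (plus), and Jun at chromosome 4, 95049034 to 95052222 (minus). Junb, at 84974484 to 84978718 (minus), and Jund, at 70698949 to 70700616 (plus), are both on chromosome 8. Genes on the opposite strand share 232 exon bases with Jun (Junos), 173 with Junb (Prdx2, a peroxiredoxin) and 877 with Jund (Gm11175). No strand setting is given in the sources used here, so reads of each pair cannot be told apart over those bases.

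The 2 promoters below are shown because Fos and Jun each have a well-known short element within 250 bases upstream of the start. Elements farther upstream are not shown. The sequences are RefSeq's for GRCm38.p6, each on the strand of its gene and ending at the base before the start.

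Fos, chr12:85473640-85473889, plus strand: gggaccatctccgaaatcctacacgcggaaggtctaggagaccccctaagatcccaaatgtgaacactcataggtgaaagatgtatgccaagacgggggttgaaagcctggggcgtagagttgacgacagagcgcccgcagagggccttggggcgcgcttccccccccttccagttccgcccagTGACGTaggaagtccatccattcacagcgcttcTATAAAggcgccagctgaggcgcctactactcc
Jun, chr4:95052223-95052472, minus strand: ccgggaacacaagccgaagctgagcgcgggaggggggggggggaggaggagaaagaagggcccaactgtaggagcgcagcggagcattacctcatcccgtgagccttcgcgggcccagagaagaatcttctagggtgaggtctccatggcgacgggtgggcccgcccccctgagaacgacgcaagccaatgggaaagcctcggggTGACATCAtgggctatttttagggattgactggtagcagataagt

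In the Fos promoter the capitals mark TGACGT, the core of a cAMP response element, whose first base is 66 bases upstream of the start, and TATAAA, the box that places the start of transcription, which begins 33 bases upstream. In the Jun promoter they mark TGACATCA, an AP-1-like site that begins 45 bases upstream. Both strands of the 250 upstream bases were searched, and TGACATCA was added with the Jun sequence already seen. Of 32851 RefSeq promoter windows of the same length, 6.47% hold TGACGT, 12.4% hold TATAAA and 2.93% hold TGACATCA. All 6 members have a promoter entry. The full element TGACGTCA (1.55% of windows), the AP-1 site TGANTCA (6.75%) and the CArG box bound by serum response factor (1.47%) matched in none of the 6, which says only that these letters are not in these windows. Bases farther upstream were not searched, so a CArG box of the Fos serum response element that lies there could not have matched. The short element TGACGT is part of TGACGTCA, so the 2 shares overlap. GGGCGG, a GC box held by 32.7% of windows, matched in Fos, Fosb, Fosl2 and Jun and is not capitalised.

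Counts in genes ran from 1.53 to 17.4 M (1e6 counts) per immunopurified library (median 3.25 M) and were 4.66 and 37.2 M in the saline and nonescalating inputs. Levels are CPM, counts per M with TMM (trimmed mean of M values) scaling, and 3 counts correspond to 0.201 to 2.25 CPM. The summed level of 7 D2 neuron markers was 692 to 9214 CPM in immunopurified libraries (median 6625) against 1177 and 1548 CPM in the inputs. The lowest value, in nonescalating replicate 4, was below both inputs. The summed level of 6 D1 neuron markers was 55.8 to 174.5 CPM against 425 and 362 CPM. Summed levels of 16 vascular markers (8 endothelial, 8 pericyte and smooth muscle) were 441 to 10030 CPM in immunopurified libraries against 470 and 242 CPM in the inputs, and all 16 had a positive log2 fold change over input, of which 3 passed the test. Saline replicate 1, nonescalating replicate 4 and nonescalating withdrawal replicate 5 of set 2 stood apart, with median Pearson correlations with the other immunopurified libraries of 0.719, 0.727 and 0.731. All comparisons were also fitted without these 3 libraries.

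Compared per kilobase of exon, which allows genes of different length to be set side by side, Jund was the most abundant member in the immunopurified libraries and Fos the least. By CPM without length, Fosl2 had a higher mean (104 CPM) than Jund (36.5 CPM). The place of Jund therefore rests on the exon lengths, 1.67 kb for Jund and 9.68 kb for Fosl2. They are those of GENCODE M21, while the annotation used for counting is not given. Of the 1668 exon bases of Jund, 877 are shared with Gm11175. The mean level was 21.9 ± 13.3 CPM per kb for Jund (SD, n = 24), 10.8 ± 6.56 for Fosl2, 8.06 ± 7.25 for Jun, 4.06 ± 7.95 for Junb, 2.34 ± 4.26 for Fosb and 0.456 ± 0.729 for Fos. Jund was the highest member in 19 of 24 libraries, Fosl2 and Junb in 2 each and Jun in 1. Within libraries, the upper gene of each neighbouring pair in this order was above the lower one in 22 of 24 libraries for Jund over Fosl2, 17 for Fosl2 over Jun, 21 for Jun over Junb, 14 for Junb over Fosb and 19 for Fosb over Fos. No gap between neighbouring means exceeded the larger of their 2 SDs.

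**Figure D1:**
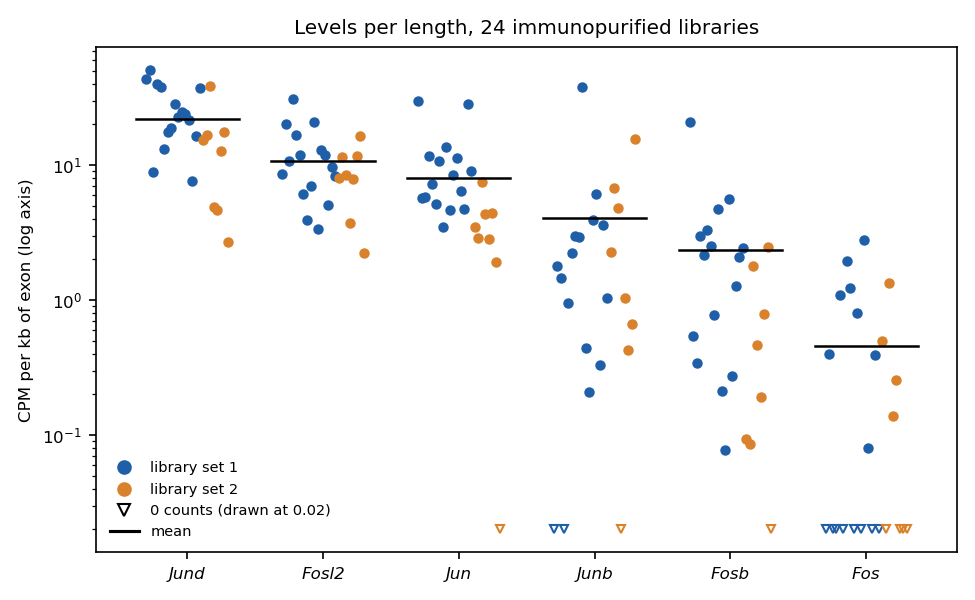
Level per length (CPM per kb of exon, log axis) of the 6 AP-1 genes in the 24 immunopurified libraries, with blue points for library set 1, orange points for set 2, open triangles for libraries with 0 counts and bars for the means. Jund has the highest mean at 21.9 CPM per kb and Fos the lowest at 0.456, with 12 libraries at 0 counts for Fos.

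The members also differed in how evenly they were spread over libraries. The coefficient of variation of CPM over the 24 libraries (SD divided by mean) was 0.61 for Fosl2 and 0.61 for Jund, 0.90 for Jun, 1.60 for Fos, 1.82 for Fosb and 1.96 for Junb, beside a median of 0.859 over all 15854 tested genes. Single libraries held much of the summed CPM of the variable members. Saline replicate 1 held 37.3% of that of Fosb, escalating replicate 1 held 38.8% of that of Junb and saline withdrawal replicate 2 of set 1 held 25.3% of that of Fos. For Jund and Fosl2 the highest library held 9.64% and 11.9%.

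Fos was at or near the counting floor in most libraries. It had 143 counts in all among 131 M gene counts of the 24 immunopurified libraries, and 70 of them (48.95%) came from saline withdrawal replicate 2 of set 1. No Fos count was seen in 12 libraries, 1 to 3 counts in 3 libraries and more than 3 in 9. By group, Fos was 0, 0.937 and 0 CPM in saline replicates 1, 3 and 4, and 0, 2.57, 0, 4.57 and 2.91 CPM in nonescalating replicates 1 to 5. It was 0 and 1.90 CPM in the 2 escalating libraries. The saline withdrawal libraries ran from 0 to 6.504 CPM (median 0.679, n = 6) and the nonescalating withdrawal libraries from 0 to 0.917 CPM (median 0, n = 8), so every group held at least 1 library at 0 and all groups overlapped. The inputs had 5 counts (1.02 CPM, saline) and 9 counts (0.240 CPM, nonescalating). No Fos fold change is given, because most libraries lie at or under 3 counts. In these bulk libraries, fewer cells with Fos RNA and less Fos RNA per cell cannot be told apart, and the same holds for each member.

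Fosb was led by 1 saline library. Saline replicates 1, 3 and 4 had 131, 3.40 and 2.12 CPM, from 595, 29 and 7 counts. The nonescalating libraries had 18.5, 13.6, 20.6, 15.6 and 4.85 CPM and the 2 escalating ones 29.6 and 1.32 CPM. Saline withdrawal ran from 0.482 to 35.1 CPM (median 1.14, n = 6) and nonescalating withdrawal from 0 to 15.6 CPM (median 6.43, n = 8). Both inputs, at 22.0 and 20.3 CPM, were above the medians of all 5 groups. All 5 nonescalating libraries lay above saline replicates 3 and 4 and below replicate 1, and 3 of the 6 saline withdrawal libraries had 3 or fewer Fosb counts.

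Fosl2, whose product Fra-2 is a Fos-family partner without the strong activation domain of c-Fos and FosB, had at least 29 counts in every library. It was at 83.4, 196 and 105 CPM in saline and at 298, 161, 115, 59.4 and 38.3 CPM in the nonescalating libraries. The 2 escalating libraries had 68.0 and 200.4 CPM. Saline withdrawal ran from 32.8 to 125 CPM (median 96.6, n = 6), nonescalating withdrawal from 21.7 to 159.6 CPM (median 78.4, n = 8), and the inputs had 76.4 and 34.3 CPM. The 5 groups overlapped widely, and the nonescalating group alone covered most of the whole range.

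Jun, the partner able to pair with itself and with every Fos protein, was at 94.4, 18.3 and 18.5 CPM in saline. The nonescalating libraries had 37.5, 23.15, 16.4, 34.3 and 11.15 CPM and the escalating ones 43.1 and 14.8 CPM. Saline withdrawal ran from 9.14 to 35.9 CPM (median 22.1, n = 6) and nonescalating withdrawal from 0 to 90.45 CPM (median 14.1, n = 8). The inputs were at 15.7 and 26.6 CPM. As for Fosb, saline replicate 1 was the highest of the 24 libraries, while Fos and Junb had 0 counts in it. That library also had the highest summed vascular markers of the 24 (10030 CPM) and the highest summed microglia markers (429 CPM, with 3 of 7 genes at 0, against a median of 21.7 over the 24). Their part in the Fosb and Jun levels was not tested.

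Junb, an immediate early member known to restrain the activity of Jun, was at 0, 4.10 and 3.33 CPM in saline and at 0, 2.20, 5.14, 6.86 and 6.78 CPM in the nonescalating libraries. The 2 escalating libraries were far apart, at 87.2 CPM (1302 counts) and 1.025 CPM (7 counts). Saline withdrawal ran from 0.482 to 15.6 CPM (median 10.1, n = 6) and nonescalating withdrawal from 0 to 35.95 CPM (median 1.95, n = 8). The inputs differed as well, with 19.96 CPM in the saline and 2.72 CPM in the nonescalating one. Escalating replicate 1 was the highest of the 24 immunopurified libraries, and its summed vascular markers were 8757 CPM against 2144 CPM in escalating replicate 2, whose part in this difference was not tested.

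Jund, the Jun protein found in most resting cells, was at 72.0, 84.55 and 14.8 CPM in saline and at 66.5, 63.2, 21.85, 29.3 and 31.5 CPM in the nonescalating libraries. The escalating ones had 47.3 and 38.1 CPM. Saline withdrawal ran from 25.7 to 64.5 CPM (median 37.99, n = 6) and nonescalating withdrawal from 4.49 to 61.8 CPM (median 16.9, n = 8). The inputs had 17.1 and 27.1 CPM. The 4 libraries with the lowest Jund values were all in nonescalating withdrawal, but its highest value, 61.8 CPM, lay within the ranges of saline, nonescalating and saline withdrawal and above both escalating libraries.

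Ordered by mean, the highest group was saline for Fosb, Jun and Jund, nonescalating for Fos and Fosl2 and escalating for Junb. The lowest was nonescalating withdrawal for Fos, Fosb, Fosl2 and Jund, saline withdrawal for Jun and saline for Junb. In all 6 genes the ranges of groups next to each other in this order overlapped, and no gap between 2 neighbouring means exceeded the larger of their SDs.

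**Figure D2:**
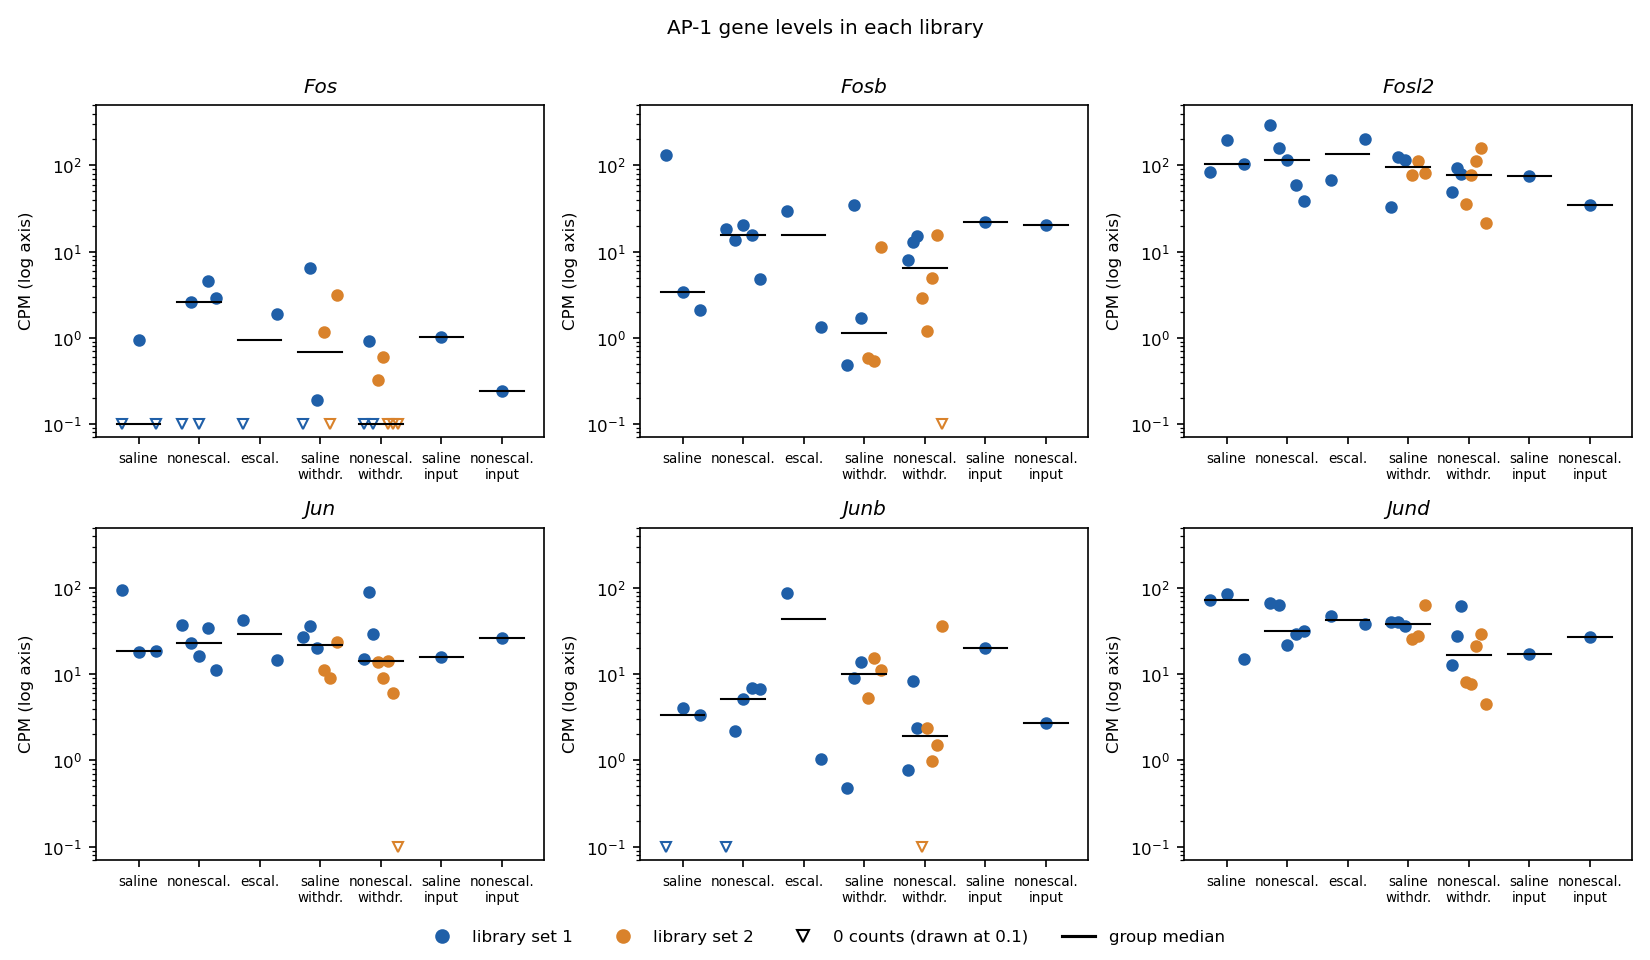
CPM (log axis) of each AP-1 gene in every library, grouped as saline, nonescalating, escalating, saline withdrawal, nonescalating withdrawal and the 2 inputs. Filled points are libraries (blue for set 1, orange for set 2), open triangles are libraries with 0 counts drawn at 0.1, and bars are group medians. The groups overlap for every gene, with single high libraries for Fosb (131 CPM, saline) and Junb (87.2 CPM, escalating).

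Differences between groups were tested with edgeR's quasi-likelihood test and Benjamini-Hochberg adjustment over all tested genes, with group and library set as terms over the 24 immunopurified libraries. None of the 6 members passed in any of 9 comparisons (0 of 54 tests at an adjusted p of 0.05, 3 at an unadjusted p under 0.05). DESeq2, which gave no p for Fosb in any comparison and no adjusted p for Fos between library sets, called 1 of the rest, Jun between library sets, and limma voom called none. No member passed without the 3 libraries that stood apart. For the members other than Fos, a fold change is printed below where it was larger than its standard error. The remaining ones of these members, all within 1 standard error of 0, are given as ranges. Fos fold changes are not printed, whatever their size.

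For nonescalating cocaine against saline, 0 of 6 members passed and 0% of all genes did, with 0 members and 1068 of 15854 genes at an unadjusted p under 0.05. DESeq2 called 34 genes and none of the 5 members for which it gave a p. Fosb had a log2 change of -1.66 (SE 1.23, adjusted p = 0.863 by edgeR). Without saline replicate 1 it was 2.36 and with limma voom 0.79, so its direction rests on that library. Jun had -0.85 (SE 0.79, adjusted p = 0.91 by edgeR), and 0.40 without saline replicate 1. Fosl2, Junb and Jund lay between -0.46 and 0.69.

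For escalating cocaine against saline, 0 of 6 members passed, beside 0% of all genes. Junb was the 1 member at an unadjusted p under 0.05, beside 1283 of all genes, and DESeq2 called 143 genes. Junb had a log2 change of 4.09 (SE 1.90, unadjusted p = 0.039, adjusted p = 0.614 by edgeR). Without escalating replicate 1 it was -1.26, so both the size and the direction rest on 1 of 2 libraries. Fosb, Fosl2, Jun and Jund lay between -1.59 and 0.05.

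For escalating against nonescalating cocaine, again 0 of 6 members and 0% of all genes passed. Junb alone had an unadjusted p under 0.05, beside 1388 of all genes, and DESeq2 called 225 genes. The log2 fold change of Junb was 3.39 (SE 1.56, unadjusted p = 0.0368, adjusted p = 0.558 by edgeR) and -1.96 without escalating replicate 1. Fosb, Fosl2, Jun and Jund lay between 0.0033 (Jund) and 0.23 (Jun). This comparison and the previous one share the 2 escalating libraries.

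After withdrawal, nonescalating cocaine against saline gave 0 of 6 members and 0% of all genes (0 members and 553 genes at an unadjusted p under 0.05, 2 genes by DESeq2). Jund had the largest difference for its error, with a log2 change of -0.92 (SE 0.49, unadjusted p = 0.0673, adjusted p = 1 by edgeR). In library set 1 alone Jund was 38.98 ± 2.67 CPM in saline withdrawal (SD, n = 3) and 34.0 ± 25.2 in nonescalating withdrawal (n = 3), a log2 change of -0.20. In set 2 alone it was 39.4 ± 21.8 (n = 3) and 14.1 ± 10.6 CPM (n = 5), a log2 change of -1.45. Over both sets it was -0.54 without saline withdrawal replicate 3 of set 2. Fosb, Fosl2, Jun and Junb lay between -0.69 and 0.09.

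Withdrawal against none was compared within each agent. In saline, 0 of 6 members passed beside 0% of all genes (0 members and 1052 genes at an unadjusted p under 0.05, 30 genes by DESeq2). Fosb had a log2 change of -1.95 (SE 1.27, adjusted p = 0.831 by edgeR), and 2.06 without saline replicate 1. The other members except Fos lay between -0.565 (Fosl2) and 1.455 (Junb). In nonescalating cocaine, 0 of 6 members passed beside 0% of all genes (0 members and 440 genes at an unadjusted p under 0.05, 0 genes by DESeq2). Fosl2 had -0.83 (SE 0.53, adjusted p = 1 by edgeR), which limma voom put at 0.05, and -0.17 without nonescalating replicate 1. Jund had -0.65 (SE 0.58, adjusted p = 1 by edgeR), -0.29 without nonescalating replicate 1 and -1.28 without nonescalating withdrawal replicate 4 of set 1. Fosb, Jun and Junb lay between -0.20 and 0.51.

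The difference between the cocaine effect after withdrawal and that without it was tested as an interaction, and 0 of 6 members passed beside 0% of all genes (0 members and 776 genes at an unadjusted p under 0.05, 11 genes by DESeq2). Fosb had 1.75 (SE 1.57, adjusted p = 1 by edgeR) and -2.26 without saline replicate 1. Fosl2, Jun, Junb and Jund lay between -1.38 and 0.73. The comparisons above share their control and withdrawal libraries, so a gene's fold changes in them are not independent.

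**Figure D3:**
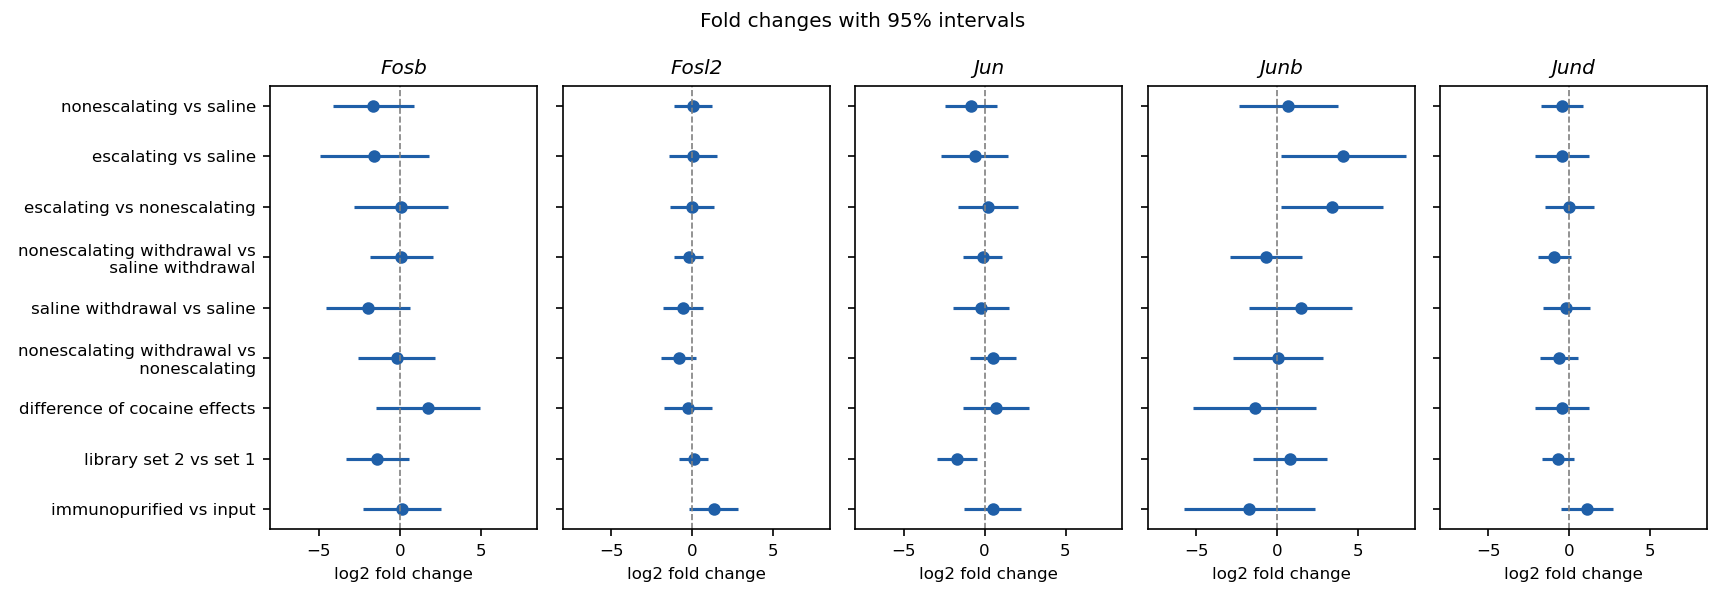
Log2 fold change (points) with its 95% interval (bars) of Fosb, Fosl2, Jun, Junb and Jund in the 9 comparisons, from edgeR's quasi-likelihood fit. Most intervals include 0. The exceptions are Junb in both escalating comparisons (4.09 and 3.39) and Jun between library sets (-1.71), and none of these passed the adjusted threshold.

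The smallest p of any member was that of Jun between library sets. Among withdrawal libraries, Jun was at 27.0, 35.9 and 20.4 CPM in saline withdrawal replicates 1 to 3 of set 1 and at 15.15, 90.45 and 29.1 CPM in nonescalating withdrawal replicates 1, 2 and 4 of set 1. In set 2 it was at 11.1, 9.14 and 23.7 CPM in saline withdrawal and at 13.9, 8.99, 14.2, 6.08 and 0 CPM in nonescalating withdrawal. Set 1 had the higher values, and the ranges overlapped, since saline withdrawal replicate 3 of set 2 lay above 2 libraries of set 1. The log2 fold change of set 2 over set 1 was -1.71 (SE 0.60, unadjusted p = 0.00766, adjusted p = 0.174 by edgeR), and DESeq2 gave -1.72 with an adjusted p of 0.0463. Over 14 fits that left out 1 library and 9 other settings it ran from -2.03 to -1.10, the latter without nonescalating withdrawal replicate 2 of set 1, with adjusted p from 0.0463 to 0.476.

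Of the 6 members, 0 passed between sets, beside 0.915% of all genes (145 of 15854, with 25 higher and 120 lower in set 2). At an unadjusted p under 0.05 there were 1 member and 2138 genes. Fosb had a log2 change of -1.40 (SE 0.95, adjusted p = 0.561 by edgeR), and -0.30 without saline withdrawal replicate 2 of set 1, which holds 378 of the 799 Fosb counts of set 1 withdrawal. Jund had -0.68 (SE 0.49, adjusted p = 0.588 by edgeR), and -0.21 without nonescalating withdrawal replicate 4 of set 1. Fosl2 and Junb had 0.10 and 0.82, within 1 standard error of 0. Other values moved with the sets. Gene counts per withdrawal library were 1.92 to 14.2 M in set 1 and 1.53 to 3.39 M in set 2. The 16 vascular markers summed to 1814 to 9420 CPM in set 1 (median 4057, 0 to 1 of the 16 at 0) and to 441 to 2260 CPM in set 2 (median 748, 0 to 3 at 0), and 16 of 16 had a negative fold change, of which 6 passed. Their part in the Jun difference was not tested, and library set cannot be told apart from whatever else differed between the 2 series of library numbers.

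**Figure D4:**
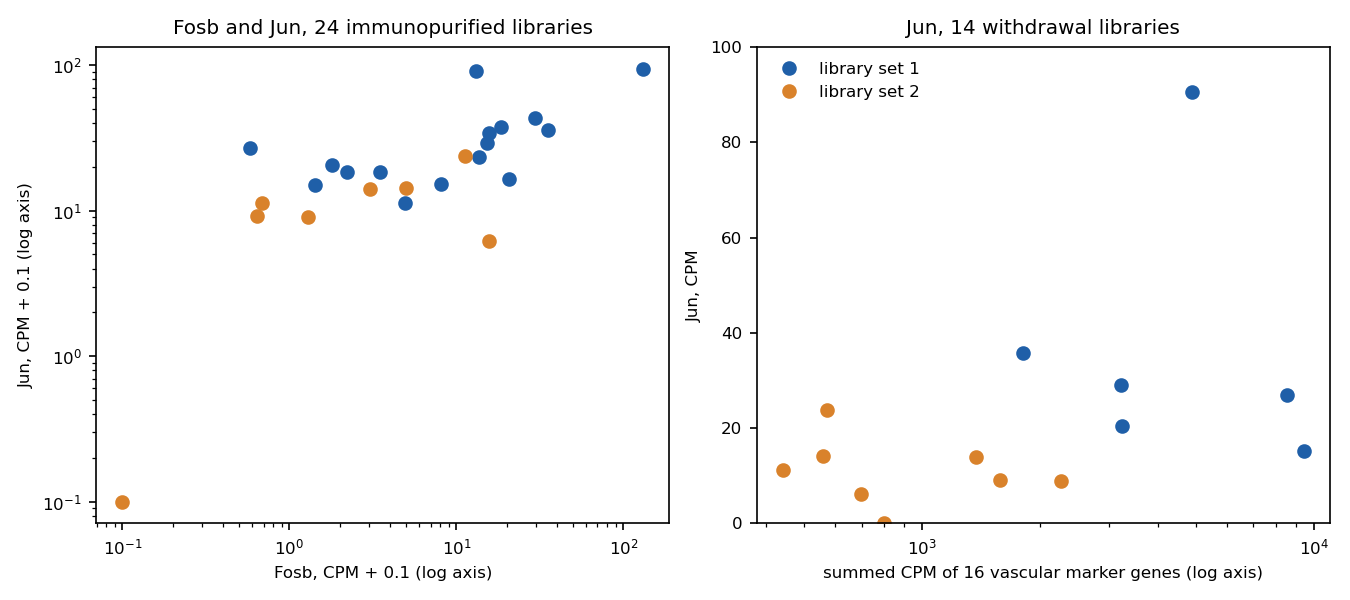
Left, Jun against Fosb in the 24 immunopurified libraries (CPM + 0.1, both axes log). Right, Jun in CPM against the summed CPM of 16 vascular marker genes (log axis) in the 14 withdrawal libraries. Blue is library set 1 and orange set 2. Jun and Fosb are highest together in 1 saline library (94.4 and 131 CPM), and set 2 libraries span 0 to 23.7 CPM for Jun and 441 to 2260 CPM for the vascular markers.

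Immunopurified RNA was compared with input over the 3 saline and 5 nonescalating libraries and the 2 inputs, with agent as a term. Of the 6 members, 0 passed, beside 0.255% of all genes (38 of 14929, all higher in immunopurified RNA), with 0 members and 1234 genes at an unadjusted p under 0.05. DESeq2 called 757 genes and none of the 5 members other than Fosb, and limma voom 1091 genes and no member. Fosl2, at 38.3 to 298 CPM in the 8 immunopurified libraries and 76.4 and 34.3 CPM in the inputs, had a log2 change of 1.32 (SE 0.72, adjusted p = 0.697 by edgeR), which was 0.79 without the nonescalating input. Jund, at 14.8 to 84.55 CPM and 17.1 and 27.1 CPM, had 1.10 (SE 0.76, adjusted p = 0.858 by edgeR), which was 0.57 without the saline input and 1.77 without the nonescalating one. Fosb, Jun and Junb lay between -1.71 and 0.50. With 1 input per agent, the error of these values is set by the spread of the immunopurified libraries. Leaving out the saline input left 1 gene called, and leaving out saline replicate 3 gave 252.

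Members were next compared with each other from library to library, as correlations of log2 CPM (prior count 2) over the 24 immunopurified libraries, with 2-sided permutation tests adjusted over the 15 pairs. Of the 15 pairs 4 passed, all among Fosb, Fosl2, Jun and Jund. The share of pairs that pass among other genes was not counted, so 4 of 15 cannot be set against a background. Fosb and Jun had Pearson r = 0.676 (permutation p = 8e-05, adjusted p = 0.0012) and Spearman rho = 0.649 (permutation p = 0.00072, adjusted p = 0.00727). Jun and Jund had r = 0.663 (permutation p = 0.00038, adjusted p = 0.00285) and rho = 0.643 (permutation p = 0.00097, adjusted p = 0.00727). Fosl2 and Jund had r = 0.564 (permutation p = 0.00415, adjusted p = 0.0207) and rho = 0.433 (permutation p = 0.0357, adjusted p = 0.134), and Fosb and Jund r = 0.533 (permutation p = 0.00743, adjusted p = 0.0279) and rho = 0.452 (permutation p = 0.0277, adjusted p = 0.134). The last 2 pairs therefore passed by r and not by rho.

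The 4 relations were also computed without the farthest libraries, within each set and on residuals. Without the 2 libraries farthest from the median of the first gene, r was 0.496 for Fosb and Jun, 0.415 for Jun and Jund, 0.359 for Fosl2 and Jund and 0.321 for Fosb and Jund. Within set 1 (n = 16) r was 0.617 for Fosb and Jun (permutation p = 0.0103, adjusted p = 0.155) and 0.345 for Jun and Jund (permutation p = 0.192, adjusted p = 0.958). Within set 2 (n = 8) it was 0.620 (exact permutation p = 0.0747, adjusted p = 0.301) and 0.657 (exact permutation p = 0.0628, adjusted p = 0.301), and no pair passed within either set. Without the 2 libraries farthest from the median of the first gene, these set 2 values were 0.916 and -0.368. The r of Jun and Jund in set 2 thus changed sign. After group and set were taken out as residuals, r was 0.671 for Fosb and Jun (permutation adjusted p = 0.0015), 0.528 for Jun and Jund (0.0319), 0.523 for Fosl2 and Jund (0.0339) and 0.564 for Fosb and Jund (0.0319), so all 4 passed there by r. By rho on the residuals only Fosb and Jun passed (rho = 0.723, permutation adjusted p = 0.0009). Jun and Jund (0.0793), Fosl2 and Jund (0.0559) and Fosb and Jund (0.0646) did not. Junb did not follow these members, with r of -0.173 with Fosb, -0.178 with Fosl2, -0.268 with Jun and -0.0762 with Jund, none of which passed. Fos had r between 0.0873 and 0.230 with the other 5. The libraries share their depth and their cell mix with every gene, so these are descriptions of how levels moved together.

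Genes whose levels were most like those of a member over the 24 libraries were taken from tested genes whose log2 CPM averaged 4 or more. Genes with a predicted symbol were left out, which gave 6679 or 6680 candidates per member. The values below are the highest of that many and were not tested. For Jun these were Hgs (r = 0.909), Notch2 (0.886) and Men1 (0.878), the last of which encodes menin, a protein known to bind JunD. Within set 1 the same 3 had r of 0.521, 0.567 and 0.352 with Jun, and within set 2 0.981, 0.944 and 0.979, where 1 library with 0 Jun counts is among 8. For Jund they included Elmsan1 (0.806) and Xpo6 (0.790), for Fosb they were Pcdhga3 (0.808), Ampd3 (0.752) and Psmc3 (0.708), and for Fosl2 Wdr83os (0.782), Grik3 (0.763) and Zfand3 (0.749). Junb was most like Chmp4b (0.691), Trpm3 (0.690) and Gstz1 (0.672), and Fos, with 0 counts in 12 of the 24 libraries, most like Mib1 (0.647), Actr8 (0.591) and Rps6ka5 (0.590). Within set 2, in the same order, r was 0.871, 0.615 and 0.0859 for Junb and 0.402, 0.441 and 0.133 for Fos. There it was 0.801, 0.760 and 0.201 for Fosb, 0.775, 0.9535 and 0.916 for Fosl2, and 0.958 and 0.762 for the 2 genes named for Jund.

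Genes that pair with AP-1 proteins, lie upstream of them or have been described as their targets were read from lists. The 4 lists had no gene past the threshold in the 7 comparisons between groups or in that against input. Leave-one-out values were not read for list genes, so whether their fold changes rest on 1 library was not tested. Of 14 tested partner and family genes (other Fos, Batf, Atf, Maf and Nfe2 proteins), 8 were above 0 and 6 below in nonescalating against saline, with a median log2 fold change of 0.08 beside 0.01 over all genes. Atf3, a stress-induced dimer partner, had the smallest p there, with -5.97 (SE 2.45, adjusted p = 0.719 by edgeR). Of 26 upstream kinases and factors, 6 were above 0 and 20 below in that comparison (median -0.15), and 19 above and 7 below in escalating against nonescalating (median 0.41, beside -0.12 over all genes). The shared medium spiny neuron markers had 0 of 8 above 0 in the first of these comparisons (median -0.37) and 8 of 8 in the second (median 0.52). The oligodendrocyte markers had 8 of 8 above 0 (median 1.12) and then 0 of 8 (median -0.69), and the part of either in the upstream counts was not tested. Srf, the serum response factor that drives Fos through the serum response element, had 2.09 in the latter (SE 0.61, unadjusted p = 0.00156, adjusted p = 0.558 by edgeR).

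Of 26 other immediate early genes, 11 were above 0 and 15 below in nonescalating against saline, and 18 above and 8 below in escalating against nonescalating. Dusp1, a phosphatase that turns off MAP kinases, had the smallest p of this list in both, with -1.40 (SE 0.49, adjusted p = 0.719 by edgeR) and 1.87 (SE 0.54, unadjusted p = 0.0016, adjusted p = 0.558 by edgeR). The nonescalating libraries enter both comparisons. Of 14 tested genes described as AP-1 targets, 8 were above 0 and 6 below in nonescalating against saline, led by the metallothionein Mt2 (2.79, SE 1.11, adjusted p = 0.719 by edgeR). After withdrawal, nonescalating against saline had 8, 7, 9 and 14 genes above 0 in the partner, upstream, target and immediate early lists, out of 14, 26, 14 and 26. Against input, Elk4, a partner of Srf, had 2.33 (SE 0.53, adjusted p = 0.0714 by edgeR), and Pdyn, a target list member that D1 neurons express, had -2.19 (SE 0.57, adjusted p = 0.113 by edgeR).

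Between library sets 4 list genes with counts in both sets passed, and Zfp36, absent from the counts of set 1, is given apart. By list, 1 of 14 tested partner genes, 1 of 26 upstream genes and 0 of 14 target genes passed. Of 26 other immediate early genes, 2 passed as lower and 1, Zfp36, as higher in set 2. Over all genes 0.915% passed (145 of 15854), and whether the lists differ from that share was not tested. Atf7, a cAMP response element binding factor that pairs with AP-1 proteins, was at 96.9 to 220.0 CPM in the 6 withdrawal libraries of set 1 and at 16.7 to 58.8 CPM in the 8 of set 2 (log2 fold change -2.275, SE 0.37, adjusted p = 0.00104 by edgeR), with no overlap. Mapk8, which encodes the Jun kinase JNK1, was at 29.9 to 93.7 CPM in set 1 and 98.4 to 209.7 CPM in set 2 (1.54, SE 0.35, adjusted p = 0.0204 by edgeR), also with no overlap and with a sign opposite to that of Jun. How many of all genes had no overlap between the sets was not counted. Nr4a3, an immediate early nuclear receptor, was at 3.67 to 24.25 CPM in set 1 and 0 to 2.66 CPM in set 2 (-4.14, SE 0.78, adjusted p = 0.00429 by edgeR). Its set 2 values came from 0 to 7 counts, with 3 or fewer in 6 of 8 libraries, so the size of this change rests on values near the counting floor. Klf4, an immediate early zinc finger factor also known in vascular cells, was at 21.9 to 91.5 CPM in set 1 and 3.57 to 30.1 CPM in set 2 (-2.64, SE 0.67, adjusted p = 0.0469 by edgeR). Klf4 was at 0.407 and 0.507 CPM in the inputs (2 and 19 counts). Zfp36, an immediate early RNA-binding protein gene, had 0 counts in all 18 libraries of set 1, inputs included, and 6 to 63 counts in each of the 8 libraries of set 2 (adjusted p = 0.00618 by edgeR). Only 3 genes had this pattern of 0 in all of set 1 and counts in all of set 2, and no AP-1 member was among them. The tables of set 1 list 32657 genes and those of set 2 32531, and no source used here names the gene models. Whether Zfp36, or any other gene compared between sets, was counted in the same way in both therefore cannot be told.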

How the data were processed

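RNA was measured in 24 immunopurified and 2 input libraries. The authors deposited 1 table per library with whole-number read counts, not normalized, for each gene symbol. The tools named in the submitters' processing notes are STAR 2.0.0e and HTSeq, with the mouse build mm10. Neither the HTSeq version nor the annotation or strand option used for counting is given in the sources used here. The 5 HTSeq summary rows were left out.

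The main test was edgeR 4.0.16 (R 4.3.3), quasi-likelihood F, with TMM scaling, robust fitting, low counts removed by filterByExpr (at least 10) and a Benjamini-Hochberg adjusted p under 0.05 as the call. It was fitted on the 24 immunopurified libraries with group and library set (15854 genes) and on 8 immunopurified and 2 input libraries with agent (14929 genes). All 6 members passed the filter in both. A standard error is the fold change (log2) over the root of F. Correlations used 100000 permutations, or every permutation in set 2. The script was tested on simulated data. Libraries of 1 group were checked pairwise, with a chi-square over its degrees of freedom of 20.4 or more in all 57 pairs, so none was the same library sequenced again. Separate libraries made from the same RNA or animal cannot be told by this check.

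The members and gene lists were chosen with earlier results of these data known. Named are the members other than Fos with a fold change larger than its standard error, a rule set after the values were seen, list genes that passed or otherwise up to 2 with the smallest p, and the 3 genes most like each member. Only part of these are printed, and 1 is not reported here. Alternatives were DESeq2 1.42.0, limma voom (3.58.1), RLE scaling, other filters (none, or CPM of at least 1), other sample choices, a replicate block and each library left out. Leaving out the 3 libraries that stood apart, or set 2 libraries under 2 M (1e6) counts, was added after seeing the data.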

Additional observations from a re-analysis of the deposited data

Results flagged for a closer look

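Of 18 combinations of a member and a group of 4 to 10 libraries, 4 held 1 library whose gap to the next was large for the group's range by Dixon's 95% criterion. Chance alone meets it in about 1 of 20 groups where values are normally distributed. Here it was applied to CPM without a log, and the withdrawal groups hold both library sets. The 4 of 18 therefore cannot be set against that rate. All 4 were the highest value of their group. Fosb was at 35.1 CPM in saline withdrawal replicate 2 of set 1 (378 counts), where the next of 6 libraries had 11.2 CPM. Jun was at 90.45 CPM in nonescalating withdrawal replicate 2 of set 1 (986 counts), with 29.1 CPM as the next of 8. Junb was at 35.95 CPM in nonescalating withdrawal replicate 5 of set 2 (48 counts, 1 of the 3 libraries that stood apart), with 8.35 CPM as the next of 8. Jund was at 61.8 CPM in nonescalating withdrawal replicate 4 of set 1 (886 counts), with 29.25 CPM as the next of 8. The 4 values lie in 4 different libraries. The saline and escalating groups, with 3 and 2 libraries, were too small for this criterion, so the high Fosb, Jun and Junb values there were not examined by it.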

How the results depend on the processing

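No AP-1 gene was called under any alternative in any comparison except Jun between library sets with DESeq2 (log2 fold change -1.72, adjusted p = 0.0463, 1 AP-1 gene called). DESeq2 gave no p for Fosb. Counts of all genes called moved with the tool. DESeq2 called 34, 143, 225, 2, 30 and 11 genes for nonescalating against saline, escalating against saline, escalating against nonescalating, nonescalating withdrawal against saline withdrawal, saline withdrawal against saline and the difference of cocaine effects, 679 between sets and 757 against input. Limma voom called 8 for escalating against nonescalating, 459 between sets and 1091 against input. Against input, 132 were called with no filter and 160 with all 16 set 1 libraries. Between sets, 364 were called with only the withdrawal groups in the fit. Replicate numbers were not used to pair libraries in the main fit. Residual correlations were -0.155 to 0.276 in 47 same-numbered pairs (median 0.036), 15 of them over 0.1. In 172 pairs of other numbers they were -0.354 to 0.260 (median 0.00062), 38 of them over 0.1. Of 24 libraries, 6 correlated best with their own number. Same-numbered pairs include pairs across the library sets, so these values cannot tell whether the numbers pair libraries. With the replicate block, 93 genes were called between sets and 257 against input, and no AP-1 gene, with Junb at 6.81 and 6.65 for escalating against saline and nonescalating. Leaving out 1 library at a time gave 0 to 1 genes for escalating against saline, 0 to 2 for escalating against nonescalating, 50 to 203 between sets and 1 to 252 against input. The causes were not tested.

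Of 14 printed fold changes, 7 kept their sign throughout. For Fosb in nonescalating against saline the sign turned with limma voom (0.79), against saline withdrawal of set 1 (0.12) and without the 3 libraries that stood apart (2.34), and leave-one-out values ran from -2.215 to 2.36. Without those 3 libraries it also turned for Jun in the same comparison (0.25), and for Fosb in saline withdrawal against saline (1.99) and for the difference of cocaine effects (-2.06). Leave-one-out ranges of these 3 were -1.22 to 0.40, -3.71 to 2.06 and -2.26 to 2.91. Junb ranged from -1.26 to 5.09 in escalating against saline and from -1.96 to 4.375 against nonescalating. Fosl2 in nonescalating withdrawal against nonescalating was 0.0464 with limma voom. Of 31 fold changes within 1 standard error of 0, those of Fos not counted, 26 changed sign at least once. RLE scaling moved the median of all genes by over 0.1 in escalating against nonescalating only (-0.13). The 4 called pairs of members stayed called with a prior count of 0.5 and with RLE scaling. Fos had 3 or fewer counts in 15 of the 24 immunopurified libraries. Over the 24, 3 counts stood for 0.201 to 2.25 CPM (median 0.904), so Fos differences under that level could not be seen.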
